A study of Rattus norvegicus with 14 samples.

Results

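The genes described here drive and mark cell division: 38 listed genes of the cell cycle and of DNA replication. They were chosen by name and not by a cutoff on their values, though with earlier results of these data known. Of these, 34 were measured by a probe annotated with exactly 1 gene symbol, among 14506 genes measured in all. Mki67, Cenpf, Mcm3 and Mcm4 were not analysed here. Where a gene had several such probes (Rrm1, Rrm2 and Ccnb2), the brightest over the 14 arrays was used. By role the measured genes comprise 7 that govern entry from G1, 10 that act in S phase and 17 that act from G2 to the end of mitosis.

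Livers came from female Zucker rats of genotype fa/+, lean carriers of 1 copy of the fa allele of the leptin receptor gene, aged about 15 weeks per the series title. The 7 control rats ate a standard diet, and the 7 extract rats ate that diet with 0.05% by weight of a rosemary extract, of which 40% was carnosic acid, for 64 days. Each rat gave 1 array, so the 14 arrays are separate animals of a single time point, and values are log2 RMA expression, for which 1 unit is a 2-fold difference. Whole liver was sampled, so fewer cells of a type and less RNA per cell cannot be told apart. The 19 measured hepatocyte markers had means of 12.41 to 12.59 in controls and 12.45 to 12.60 in extract rats, and none of them had a mean below 5.10, the median of all probes, used below as a mark of a dim signal.

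Adult hepatocytes are mostly quiescent. To divide, a cell raises D-type cyclins, which with Cdk4 inactivate the retinoblastoma protein and free E2F factors. E2F then switches on cyclin E and the genes that make nucleotides and load the replicative helicase, and a later programme of B-type cyclins, kinases and spindle proteins carries the cell through mitosis. In rodents, compounds that activate the nuclear receptor CAR, such as phenobarbital, are known to raise Cyp2b genes and to bring on hepatocyte division early in dosing. The comparison addresses whether a response of that kind came with division genes after 64 days.

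S phase and mitotic genes are known to carry different control words in their promoters, so the 2 roles are described apart and 4 promoters are shown. RefSeq windows of the GRCr8 assembly, from 250 bases before to 50 after the gene start, were found for 27 of the 38 listed genes. Both strands were searched for E2F core words, which can overlap each other on opposite strands. The first word searched was TTCCCGC, the next variant was TTCGCGC, another variant was TTGCCGC and the last variant was TTGGCGC. The search also covered the cell cycle homology region word TTTGAA (CHR, bound by the MuvB complexes of mitotic genes) and CCAAT, the NF-Y word. An E2F word stood in 7 of 9 S phase promoters (77.8%), in 3 of 15 mitotic ones, in 10.0% of all 27457 promoters in the table and in 13.8% of the 11968 that belong to tested genes. The CHR word stood in 1 of 9 S phase promoters (11.1%), in 10 of 15 mitotic ones (66.7%) and in 18.1% of all (15.2% for tested genes). CCAAT stood in 66.7% of S phase, 80.0% of mitotic and 37.7% of all promoters. These matches describe letters and are no evidence of binding. Median log2 folds between the diets were taken over the measured genes with a promoter. They were 0.06 for the 9 with an E2F word and -0.05 for the 15 without. For the CHR word they were -0.05 (9 with) and 0.06 (15 without), and for CCAAT -0.01 (16 with) and 0.03 (8 without). Folds with and without a word overlapped, for E2F at -0.09 to 0.34 with and -0.26 to 0.31 without. The 250 bases before the start of 4 genes are shown, 5′ to 3′ on the gene's strand, with matches to any of the 3 motifs in capitals. Mcm6 at chr13:42404353-42404602 (minus strand) and Pcna at chr3:139955821-139956070 (minus strand) are the S phase genes with the largest differences below, and Cdk1 at chr20:19265043-19265292 (plus strand) and Top2a at chr10:84473094-84473343 (minus strand) are the landmark mitotic genes.
Mcm6: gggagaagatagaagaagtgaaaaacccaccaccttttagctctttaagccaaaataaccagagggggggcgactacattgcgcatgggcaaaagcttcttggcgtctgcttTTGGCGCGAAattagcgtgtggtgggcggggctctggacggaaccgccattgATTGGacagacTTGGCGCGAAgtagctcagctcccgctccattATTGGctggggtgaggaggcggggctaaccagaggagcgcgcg
Pcna: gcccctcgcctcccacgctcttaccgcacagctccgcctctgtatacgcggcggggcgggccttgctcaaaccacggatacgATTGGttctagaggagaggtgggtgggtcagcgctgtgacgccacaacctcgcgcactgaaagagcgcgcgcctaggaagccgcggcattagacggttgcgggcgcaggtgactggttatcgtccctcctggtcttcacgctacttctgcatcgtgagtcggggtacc
Cdk1: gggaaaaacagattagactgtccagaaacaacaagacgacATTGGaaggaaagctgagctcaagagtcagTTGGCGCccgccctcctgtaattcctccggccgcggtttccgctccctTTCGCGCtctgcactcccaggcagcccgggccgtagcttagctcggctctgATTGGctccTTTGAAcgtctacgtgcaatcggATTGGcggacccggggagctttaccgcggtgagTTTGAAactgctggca
Top2a: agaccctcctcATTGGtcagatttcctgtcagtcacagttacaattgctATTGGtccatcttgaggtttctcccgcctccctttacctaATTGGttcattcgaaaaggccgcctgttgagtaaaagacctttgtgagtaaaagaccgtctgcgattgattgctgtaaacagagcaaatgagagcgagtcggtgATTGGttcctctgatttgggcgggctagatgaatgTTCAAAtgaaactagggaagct
In Mcm6 the capital runs of 10 letters are pairs of overlapping E2F words 138 and 75 bases before the start, and the other capitals are CCAAT read on the opposite strand. A further E2F word crosses the start, 5 bases before it, and is not marked. The Pcna window holds a single CCAAT match and none to the E2F words. Cdk1 holds E2F words 180 and 132 bases before the start and CHR words 72 and 16 bases before it. In Top2a the CHR word, on the opposite strand, lies 22 bases before the start, behind 4 CCAAT matches.

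No measured cell cycle gene passed the test between the diets. limma's moderated test over all 14506 genes, with Benjamini-Hochberg adjustment, called 0 of 34 higher and 0 of 34 lower, where it called 3.15% of all genes (2.00% higher and 1.15% lower). An unadjusted p under 0.05 was found for 2 of the 34, Pcna and Mcm6, against 14.8% of all genes, and an unequal-variance test per gene called 0 as well. In 0 of 34 genes did the groups separate without overlap, against 1.54% of all genes. The log2 folds (extract minus control) ran from -0.26 for Ccnd2 to 0.34 for Mcm6, with a median of -0.01, beside a median of 0.00 over all genes.

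The 95% intervals bound the mean differences on the RMA scale. In all 34 genes the interval of the difference lay within 2-fold either way, as in 99.1% of all genes, and in 33 it lay below a 1.5-fold rise, as in 97.8% of all genes. The exception was Mcm6, with an upper bound of 0.67 on the log2 scale. The interval lay within 1.5-fold in both directions for 32 of 34, against 94.8% of all genes, with Ccnb1 the other gene outside. RMA is known to compress the folds of dim genes, and the mean of 18 of the 34 genes over the 14 arrays, 12 of them mitotic, lay below the median of all probes.

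**Figure D1:**
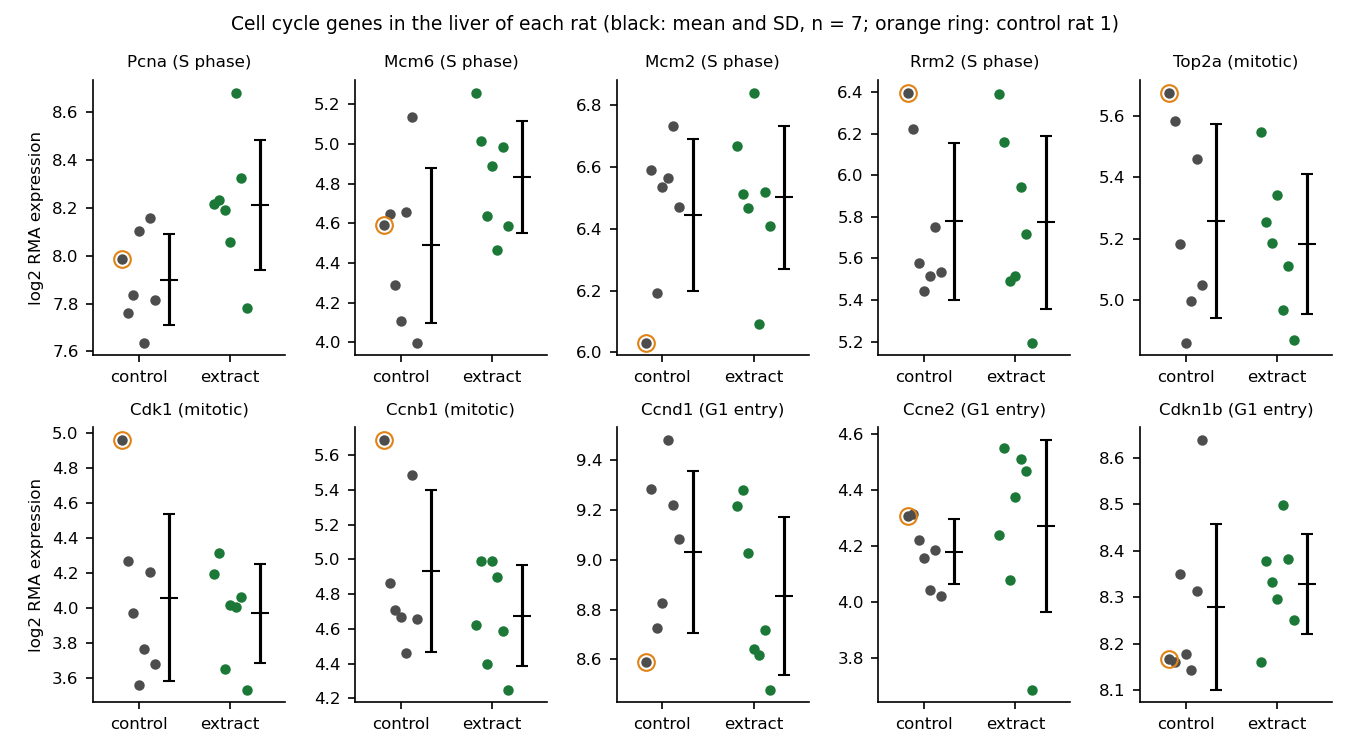
Log2 RMA expression (vertical axes, scaled per gene) of 10 cell cycle genes in each of 7 control and 7 extract rats, with mean and SD in black and control rat 1 ringed in orange. The groups overlap in every panel, and control rat 1 is the highest of all 14 rats for Top2a, Cdk1 and Ccnb1.

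**Figure D2:**
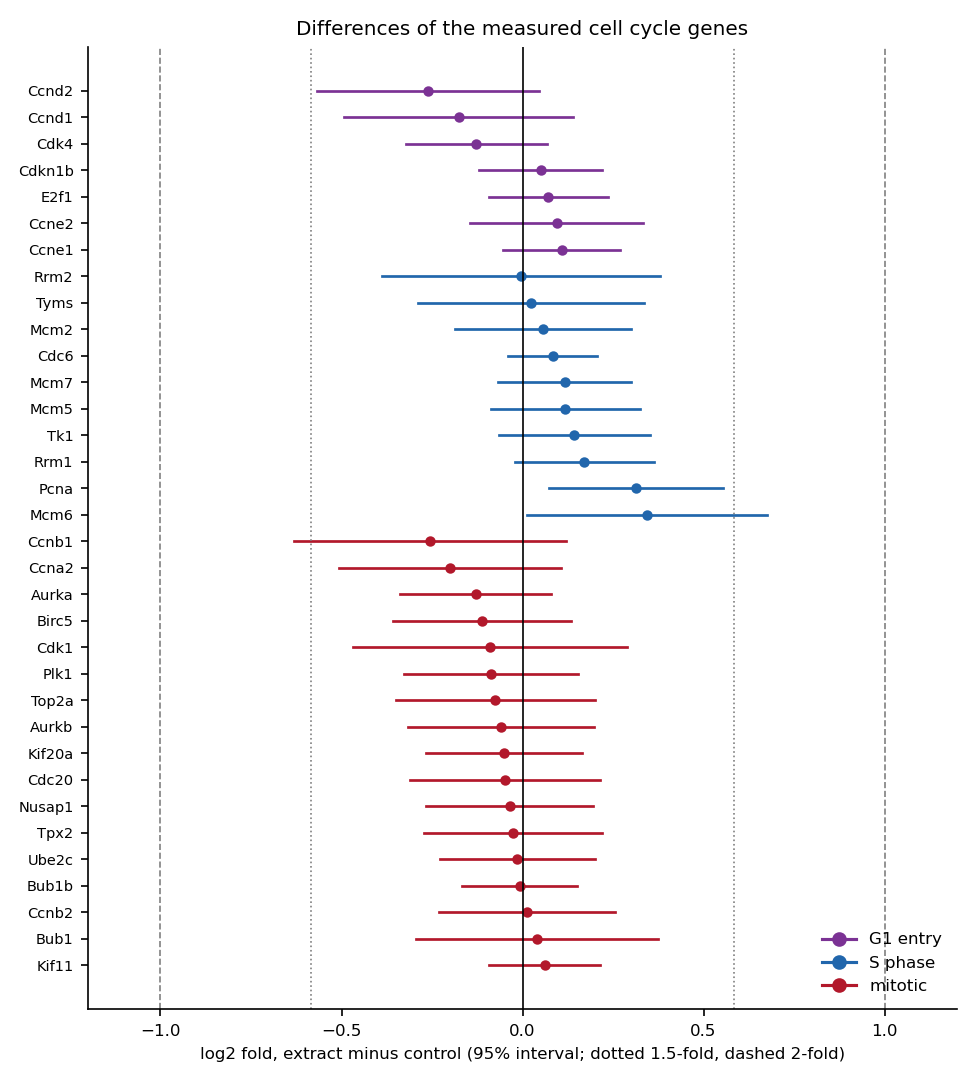
Log2 fold (extract minus control, horizontal axis) of the 34 measured genes with limma's 95% interval, coloured by role, with dotted lines at 1.5-fold and dashed lines at 2-fold. Every interval stays inside the dashed lines, and those of Pcna and Mcm6 alone lie wholly to the right of 0.

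Genes of S phase had mostly small positive differences, none of which passed the test. Of the 10 measured, 9 had a positive log2 fold (49.7% of all genes did), with a median of 0.12. Pcna, the sliding clamp that holds DNA polymerases on the template, measured 7.64, 7.84 and 8.16 in controls and 7.78, 8.22 and 8.68 in extract rats (lowest, median and highest). Of the 7 extract rats 5 lay above all controls, extract rat 5 highest, while extract rats 4 and 7 stayed within the control range. Its means were 7.90 ± 0.19 and 8.21 ± 0.27 (SD, n = 7 each), a 1.24-fold difference with a 95% interval of 1.05 to 1.47 (limma adjusted p = 0.18; 0.058 without extract rat 7, the lowest of all settings). Mcm6, a subunit of the replicative helicase, measured 4.00, 4.59 and 5.13 in controls and 4.47, 4.89 and 5.26 in extract rats. The groups overlapped widely, and only extract rat 1 exceeded control rat 6, the highest control. The log2 fold was 0.34 with a 95% interval of 0.01 to 0.67 (limma adjusted p = 0.31), on a signal below the median probe in both groups.

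The remaining helicase subunits differed less. Mcm2 measured 6.03, 6.53 and 6.73 in controls and 6.09, 6.51 and 6.84 in extract rats, with a log2 fold of 0.06 (95% interval -0.19 to 0.30). Its groups covered nearly the same range, and the fold was -0.01 without control rat 1, the lowest control. Mcm5 and Mcm7 each had a log2 fold of 0.12, and Cdc6, which loads the helicase at origins, had 0.08. Rrm2, the regulated subunit of ribonucleotide reductase, measured 5.44, 5.58 and 6.40 in controls and 5.19, 5.72 and 6.39 in extract rats, a log2 fold of 0.00 (95% interval -0.39 to 0.38). Control rats 1 and 2 and extract rats 1 and 2 formed the upper end of both groups. Its partner Rrm1 had a log2 fold of 0.17, with 0.04 on its other probe. The thymidylate-making enzymes Tk1 and Tyms had log2 folds of 0.14 and 0.02. Tyms stood highest in control rat 1 (7.59), above the highest extract rat (7.25).

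Mitotic genes had small differences, with log2 folds of -0.26 to 0.06, and none passed the test. Of the 17 measured, 14 had a negative log2 fold (50.3% of all genes did), with a median of -0.05, but without control rat 1 only 8 of 17 were negative, with a median of 0.02. With all 14 rats the smallest adjusted p was 0.57 in limma (Ccnb1). Cdk1, the kinase that starts mitosis, measured 3.56, 3.97 and 4.96 in controls and 3.53, 4.02 and 4.31 in extract rats, a log2 fold of -0.09 (95% interval -0.47 to 0.29). The medians nearly coincided, and control rat 1 lay above every other rat. Without it the log2 fold of Cdk1 was 0.06. Its partner Ccnb1, cyclin B1, measured 4.46, 4.71 and 5.69 in controls and 4.25, 4.62 and 4.99 in extract rats, a log2 fold of -0.26 (95% interval -0.63 to 0.12), and of -0.13 without control rat 1. Control rats 1 and 6 exceeded all 7 extract rats. Top2a, the topoisomerase that untangles sister chromatids, measured 4.86, 5.18 and 5.68 in controls and 4.87, 5.19 and 5.55 in extract rats, a log2 fold of -0.08 (95% interval -0.35 to 0.20), and of -0.01 without control rat 1. Here the 2 groups covered almost the same range.

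The other mitotic genes had log2 folds of -0.20 to 0.06. Cyclins A2 and B2 (Ccna2 and Ccnb2) had log2 folds of -0.20 and 0.01, and a second Ccnb2 probe had -0.03. The Aurora kinases Aurka and Aurkb had -0.13 and -0.06, and Birc5, survivin, which sits in 1 complex with Aurkb, had -0.11. Plk1, a kinase of mitotic entry and spindle assembly, had -0.09. The spindle checkpoint kinases Bub1 and Bub1b had 0.04 and -0.01. Ube2c and Cdc20, which act with the anaphase-promoting complex, had -0.01 and -0.05. The spindle motors and binding proteins Kif11, Kif20a, Tpx2 and Nusap1 lay between -0.05 and 0.06.

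The mitotic genes varied widely from rat to rat, with a median SD of 0.28 among controls and 0.21 among extract rats, beside 0.16 in both groups over all genes. Control rat 1 had the highest value of the 7 controls in 14 of 17 mitotic genes and the highest of all 14 rats in 11 of 17, a median of 0.45 above the control median. Its mean over the 17 genes was 5.12, against 4.49 to 4.82 in the other 6 controls and 4.39 to 4.82 in the extract rats. Extract rat 7 had the lowest value of the extract rats in 9 of 17. The direction of the mitotic median thus turned with control rat 1, while the S phase median was 0.13 without that rat. The S phase mean did not set control rat 1 as far apart (6.09, in controls 5.76 to 6.09 and in extract rats 5.83 to 6.23), and for Mcm2 control rat 1 was the lowest control.

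Control rat 1 also carried the lowest array weight in limma (0.41, others 0.46 to 2.05) and the highest control means of 4 marker lists, macrophage (8.98), lymphocyte (5.31), bile duct (5.75) and stellate cell (7.75). The part of array quality or of other cell types in its mitotic values was not tested. Between the diets, all 15 measured macrophage markers had negative log2 folds, beside 50.3% of all genes, and none was dim. Of them 2 fell in limma's test, beside 1.15% of all genes. An unadjusted p under 0.05 in limma was found for 12 of the 15, beside 14.8% of all genes. All 8 measured endothelial markers had negative log2 folds as well, with a median of -0.14. The macrophage mean ran from 8.66 to 8.98 in controls and from 8.31 to 8.61 in extract rats, without overlap. The lymphocyte markers (0 of 15 called, 8 with a mean below the median probe) ran from 5.16 to 5.31 and from 5.08 to 5.24. Of the other marker lists, 1 of 8 bile duct and 1 of 12 stellate cell genes fell, beside 1.15% of all genes. In limma's test 0 of 19 hepatocyte, 0 of 8 endothelial and 0 of 8 erythroid genes were called. Of these lists 3, 2 and 1 genes had an unadjusted p under 0.05, beside 14.8% of all genes. Their part in the cell cycle values was not tested.

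**Figure D3:**
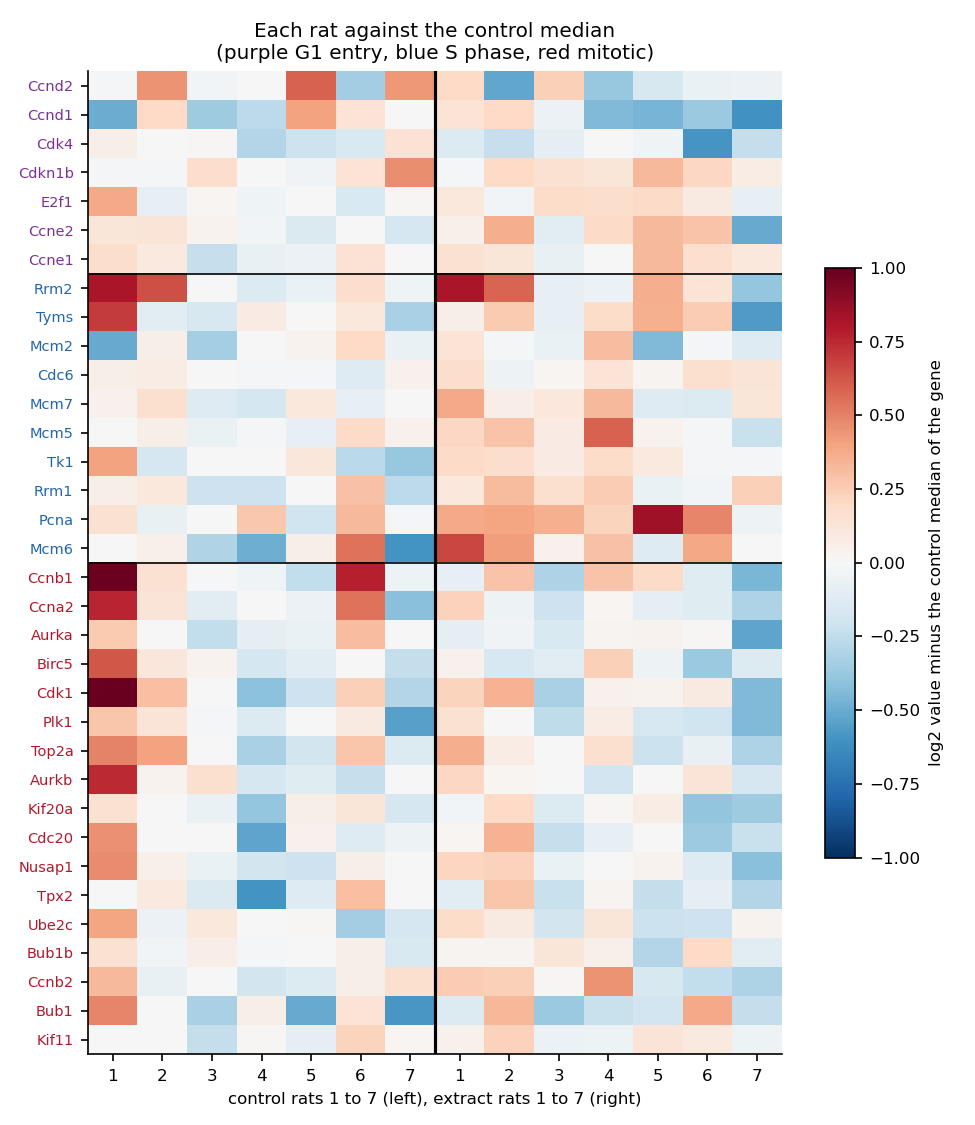
Log2 value of each of the 34 genes (rows, grouped by role) in each rat (columns, controls left of the line and extract rats right) minus the gene's control median, in colour from -1 to 1. Control rat 1 is raised across most mitotic genes, and extract rat 7 is low in many of them.

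None of the 7 genes of G1 entry passed the test, and their median log2 fold was 0.05. Ccnd1, cyclin D1, which couples growth signals to the cell cycle, measured 8.59, 9.08 and 9.48 in controls and 8.48, 8.72 and 9.28 in extract rats, a log2 fold of -0.18 (95% interval -0.49 to 0.14). Extract rats 1 and 2 lay above the control median, the other 5 below it, and extract rat 7 below every control. Ccnd2 and the kinase Cdk4 had log2 folds of -0.26 and -0.13, and Ccne1 and E2f1 had 0.11 and 0.07. Ccne2, cyclin E2, measured 4.02, 4.19 and 4.31 in controls and 3.68, 4.37 and 4.55 in extract rats, a log2 fold of 0.09 (95% interval -0.14 to 0.33). Here 4 extract rats lay above all controls and extract rat 7 below them. The fold was 0.19 without extract rat 7. Cdkn1b, the inhibitor p27, measured 8.14, 8.18 and 8.64 in controls and 8.16, 8.33 and 8.50 in extract rats, a log2 fold of 0.05 (95% interval -0.12 to 0.22), inside the control range in every extract rat.

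The rest of the pathway was read from 134 further cell cycle genes, of which 107 were measured. In limma's test 3 rose and 1 fell, 3.74% of the list beside 3.15% of all genes, and the median log2 fold was -0.02. Among 16 genes of G1/S control 2 rose. Myc, a growth-promoting transcription factor, measured 6.01, 6.55 and 6.86 in controls and 6.91, 7.70 and 8.10 in extract rats, all 7 of them above every control (1.92-fold, limma adjusted p = 0.00393). E2f5, an E2F family member that represses cell cycle genes in quiescent cells, measured 6.06, 6.81 and 7.46 in controls and 7.30, 7.53 and 7.80 in extract rats. It was 1.61-fold higher, with 5 of 7 extract rats above all controls (limma adjusted p = 0.014; 0.12 in the unequal-variance test).

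Of 43 replication and checkpoint genes 1 rose and 1 fell. Chek1, the kinase that halts the cycle when replication stalls, measured 5.47, 5.65 and 5.88 in controls and 4.88, 5.20 and 5.45 in extract rats, all 7 below every control, a log2 fold of -0.47 ± 0.09 (SE, limma adjusted p = 0.00389). Pold2, a subunit of DNA polymerase delta, measured 5.83, 5.95 and 6.04 in controls and 6.00, 6.26 and 6.43 in extract rats, with 6 of 7 above all controls. Its log2 fold was 0.31 ± 0.08 (SE, limma adjusted p = 0.029). Removing any of 6 animals (controls 2, 3 and 5, extract rats 1, 2 and 5) put that p at 0.057 to 0.072, and the unequal-variance test put it at 0.078. Of 48 further mitotic genes limma called 0, and 5 had an unadjusted p under 0.05, beside 14.8% of all genes. Kif22, a chromosome-binding kinesin, came first (log2 fold -0.25, limma adjusted p = 0.18). Foxm1, the transcription factor that drives the mitotic programme, measured 5.10, 5.65 and 5.71 in controls and 5.30, 5.48 and 5.71 in extract rats, a log2 fold of 0.00 (95% interval -0.21 to 0.21).

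Of 16 measured genes listed as cycle brakes or p53-linked (such as Mdm2), 12 did not pass limma's test, 3 fell and 1 rose. That is 25.0% called beside 3.15% of all genes, in a list drawn up with earlier results of these data known. The median log2 fold was 0.01. The calls of Ccng2 and Cdkn2c, the one that rose, were lost under several settings. Cdkn1a, the inhibitor p21, measured 7.38, 7.76 and 8.30 in controls and 6.78, 7.19 and 7.30 in extract rats, all 7 below every control (log2 fold -0.69, limma adjusted p = 0.00811; 0.082 in the unequal-variance test). Ccng1, a cyclin induced by p53, measured 9.14, 9.22 and 9.40 in controls and 8.68, 8.91 and 9.07 in extract rats, also without overlap (log2 fold -0.34, limma adjusted p = 0.00899). Ccng2, an unconventional cyclin linked to growth arrest, measured 7.37, 7.83 and 8.03 in controls and 7.18, 7.38 and 7.73 in extract rats, with 3 of 7 below all controls. Its log2 fold was -0.40 (limma adjusted p = 0.043). Removing 1 animal put that p at 0.052 to 0.091, unless the animal was control 4, control 5 or extract 7, when the call stood. It was 0.064 after median centring, 0.0501 with an intensity trend and 0.12 in the unequal-variance test. Cdkn2c, the Cdk4 and Cdk6 inhibitor p18, measured 4.97, 5.12 and 5.79 in controls and 5.44, 5.92 and 6.31 in extract rats, with 4 of 7 above all controls. Its log2 fold was 0.59 (limma adjusted p = 0.042). Removing 1 animal put that p at 0.052 to 0.10, unless the animal was control 1 or extract 1, 6 or 7, when the call stood. It was 0.053 after median centring and 0.14 in the unequal-variance test.

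**Figure D4:**
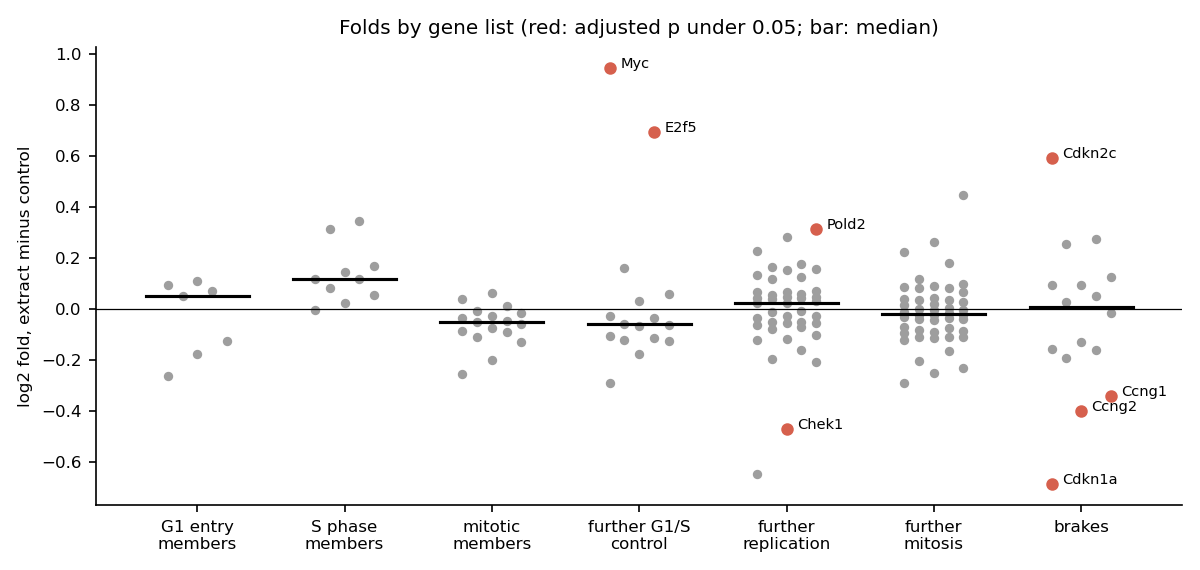
Log2 fold (extract minus control, vertical axis) of every measured gene in the 3 role groups and in 4 further lists, with the median as a bar and genes of limma adjusted p under 0.05 in red and named. The 3 role groups hold no red point, while Myc, E2f5, Pold2 and Cdkn2c lie above 0 and Chek1, Cdkn1a, Ccng1 and Ccng2 below it.

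The CAR-type response was large in the same livers. Of 26 measured CAR and PXR targets 18 rose and 0 fell in limma's test, beside 2.00% higher and 1.15% lower of all genes. Cyp2b2, a phenobarbital-inducible cytochrome P450, measured 4.72, 5.31 and 5.88 in controls and 8.72, 9.61 and 10.24 in extract rats (log2 fold 4.24, limma adjusted p = 1.47e-09). The gene of CAR itself, Nr1i3, measured 4.93, 5.09 and 5.24 in controls and 6.88, 7.45 and 7.89 in extract rats. Both separated the groups completely. Gadd45b, a stress-inducible gene that CAR activators raise, measured 6.25, 6.36 and 6.87 in controls and 6.77, 7.10 and 8.15 in extract rats, with 6 of 7 above all controls (1.83-fold, limma adjusted p = 0.016; 0.13 in the unequal-variance test). Against these, the mean of the 10 S phase genes was 5.92 ± 0.13 in controls and 6.06 ± 0.14 in extract rats, and that of the 17 mitotic genes 4.69 ± 0.22 and 4.63 ± 0.15 (SD, n = 7 each).

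To ask whether rats with more Cyp2b2 had more division transcripts within a diet, Cyp2b2 was set against Top2a, Cdk1, Mcm2, Pcna and Ccnd1 within each group of 7 rats, 10 relations in all. None passed the adjustment over the 10: Pearson's r ran from -0.29 to 0.81 and Spearman's rho from -0.21 to 0.79, with exact permutation p-values (two-sided) of at least 0.027 and 0.048 and adjusted values of at least 0.27 and 0.48. The strongest was Ccnd1 in the extract rats (r = 0.81, exact permutation p = 0.027, adjusted 0.27; rho = 0.79, exact permutation p = 0.048, adjusted 0.48). Its r was 0.89 without the 2 rats farthest from the median Cyp2b2 value. In the control rats Ccnd1 had r = -0.29 (exact permutation p = 0.52; rho = -0.21, p = 0.66), and 0.18 without the 2 farthest rats. Cdk1 had r = 0.65 in controls (exact permutation p = 0.11), which rested on the 2 farthest rats (-0.03 without them). These were control rat 1, the highest control for Cyp2b2 (5.88), and control rat 7, the lowest (4.72). Control rat 1 also had the highest control mean of the CAR and PXR targets (9.21). In extract rats Cdk1 had r = 0.40 (exact permutation p = 0.38). Over the 10 relations, r without the 2 farthest rats, which leaves 5, ran from -0.03 to 0.90, the highest for Top2a in extract rats (0.39 over all 7).

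**Figure D5:**
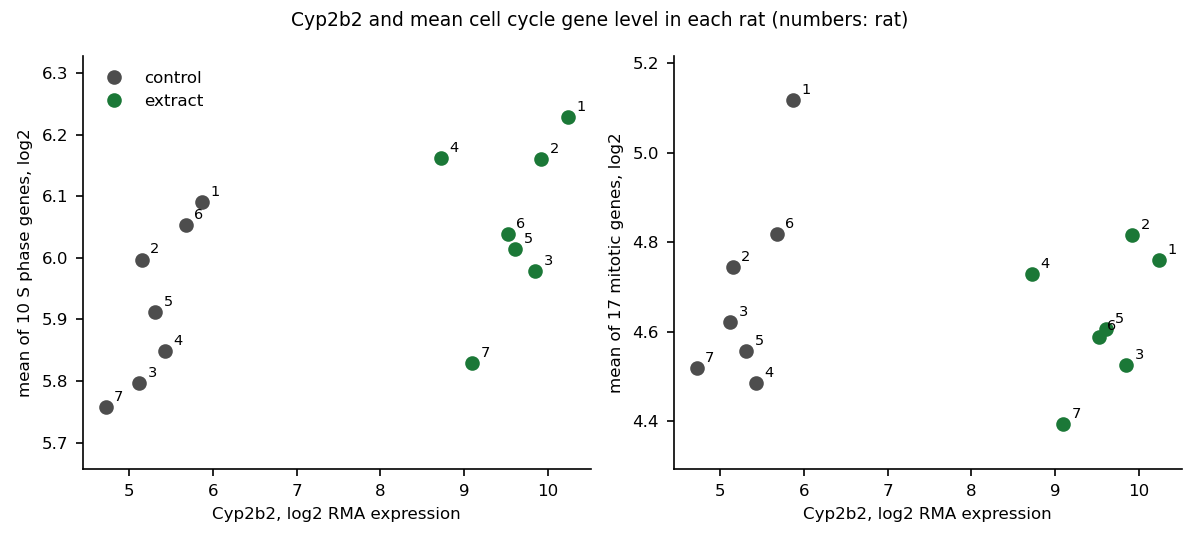
Mean log2 expression of the 10 S phase genes (left) and the 17 mitotic genes (right) against the log2 expression of Cyp2b2, 1 point per rat, labelled with the rat number. Cyp2b2 separates the diets along the horizontal axis, while the cell cycle means of the 2 diets overlap on the vertical axis.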

How the data were processed

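Total liver RNA was labelled by a whole-transcript Affymetrix protocol and each rat's sample was hybridised separately, per the labels' protocols. For 29215 probes the authors deposited log2 expression (1.95 to 14.0, the range that shows the log scale), made with RMA and Affymetrix Expression Console 1.1.2 per the submitters' processing notes. RMA options and the genome build are not given in the sources used here. The sample labels give the dose as 0.05% and the series title as 0.5%, and the former is printed.

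Gene names came from the platform annotation held by GEO (15310 with 1 symbol, 323 with several, 13582 unnamed here), giving 14506 genes. Symbols were checked against the GRCr8 gene table, which held 15279 identifiers and changed 0 symbols. Groups were compared with limma 3.58.1 in R 4.3.3 (lmFit, eBayes, two-sided, no covariate, no filter on dim probes), with Benjamini-Hochberg adjustment over 14506 genes at 0.05. The script was tested on simulated data. Relations used exact permutation (Python 3.11.15). Array medians ran from 5.02 to 5.15, the number of arrays limits precision, and the median standard error of the 34 genes was 0.11 (0.09 over all genes). The members, lists and tests were chosen with earlier results of these data known. Per-rat values were given for genes with an unadjusted p under 0.05 and for landmarks of each role. From other lists up to 4 called genes by smallest p were named, or the first. The few single-rat values of other members were chosen after they were seen. The sample labels do not state that rat numbers pair the animals, and the main test treated them as unpaired.

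The comparison was repeated after centring arrays on their medians, after a further quantile normalization, with 2 minimum signal levels, with probes averaged per gene, and with each probe tested on its own. It was also repeated with weighted arrays, with a variance trend on intensity, with unequal variances, with rat number as a block, at an adjusted p of 0.1, and without each rat. Leaving out control rat 1 with extract rat 4, the arrays of lowest weight, was added after the data had been seen.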

Additional observations from a re-analysis of the deposited data

Results flagged for a closer look

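In 100 groups of 7 values (the 34 genes, the other named genes and the role means, in each diet), 8 held a rat whose gap to its neighbour was wide enough, as a share of the group's range, to pass Dixon's 95% critical value for 7 values, where chance gives about 1 in 20. All 8 were cell cycle members, which made up most of the groups. Control rat 1 gave 5 of them, so the flags are not independent of each other. It stood highest of the controls for E2f1 (4.88), Tyms (7.59), Aurkb (5.72), Birc5 (5.14) and Nusap1 (5.09). Control rat 7 stood highest for Cdkn1b (8.64), where the next control had 8.35. Extract rat 6 stood lowest for Cdk4 (10.18, next 10.53), and extract rat 7 lowest for Aurka (3.66, next 4.04).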

How the results depend on the processing

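The count of cell cycle members called was 0 under all 26 alternatives, with 9 of the 34 genes tested under each filter on dim genes. The count over all genes (457) was 694 with array weights, 227 in the unequal-variance test and 719 at an adjusted p of 0.1. The causes were not tested, apart from the looser threshold. The further cell cycle genes called (4) were 2 in the unequal-variance test. Leaving out 1 rat gave 326 to 621 genes over all, 3 to 5 further genes, S phase medians of 0.08 to 0.15 and mitotic medians of -0.11 to 0.02. The median of all genes moved by less than 0.1 in each setting. Of 578 refits of the 23 named genes, 42 lost a call, 0 gained one and 0 called folds changed sign, while uncalled folds near 0, such as those of Cdk1 and Mcm2, did. With the rat number as a replicate block, 364 genes over all, 0 members and 3 further genes were called, with Pold2 (0.074) and Cdkn2c (0.084) lost. Same-numbered rats correlated between -0.46 and 0.28 in their deviations, with 4 of 7 over 0.1. Of the 7 controls, 2 correlated best with the extract rat of their own number. These values cannot decide whether the numbers pair animals, which the sample labels do not state. With every probe as a feature, the calls of Pold2 (0.052), Cdkn2c (0.090) and Ccng2 (0.084) were lost. Without control rat 1 and extract rat 4 the mitotic median was -0.01, with 9 of 17 genes negative.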
